A study of Homo sapiens with 16 samples.

Results

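The genes of the bradykinin receptors and of a set of RGS (regulator of G protein signalling) proteins were followed in U-87MG cells, a long-established line from a human glioblastoma. The set named 7 genes, BDKRB1, BDKRB2, RGS2, RGS3, RGS4, RGS5 and RGS16. Of these, 6 had an array row annotated with that symbol alone, each with 1 row, among 14040 genes in all, and RGS16 was not analysed here. They were chosen by their measured log2 expression in SR1 and DMSO arrays, as genes that are higher under the antagonist SR1 together with relatives of those genes, so the comparison of SR1 with DMSO is given below as a description without a test.

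Expression was measured on 16 single-colour arrays, 4 for each of 4 treatments of the same cells. Control cells received the carrier DMSO at 0.1%, and the others received indole-3-pyruvate (I3P) at 25 µM, SR1 at 1 µM, or I3P at 25 µM with SR1 at 1 µM. I3P is a keto acid made from tryptophan, and SR1 is an antagonist of the aryl hydrocarbon receptor (AHR), a ligand-activated transcription factor. All groups shared the one cell line and medium, and the labels name the arrays of a group biological replicates 1 to 4 without saying whether each came from a culture of its own, so the p-values measure the spread between these arrays. Values are log2 expression from robust multi-array averaging (RMA), so a difference of 1 is a doubling. They carry no detection calls, and levels of different genes are not compared. In bulk RNA, fewer cells expressing a gene and less of its RNA per cell cannot be told apart.

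Of the AHR targets used as a check, CYP1B1, a cytochrome P450 induced through AHR, fell by 2.57 on the log2 scale with SR1 alone against DMSO (SE 0.15, limma adjusted p = 8.5e-08). With I3P and SR1 together its change from DMSO was -0.01 (SE 0.15). One array stood apart: I3P replicate 1 correlated with each of the remaining arrays at 0.877 to 0.910, while the 15 without it correlated at 0.921 to 0.979 with each other. By their titles, replicates 1 and 2 belong to a series SLI and replicates 3 and 4 to a series SMI, each with every treatment. Of the 9 markers of astrocytes and glioma, 6 had a row, among them GFAP, SLC1A3, NES and VIM, while SOX2, OLIG2 and S100B were not analysed here. With no detection calls, the presence or absence of a marker was not assessed.

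Kinins are short peptides cut from kininogen in injured or inflamed tissue. The B2 receptor, encoded by BDKRB2, is present in many resting cells and binds bradykinin itself, while the B1 receptor, encoded by BDKRB1, is scarce at rest, is induced by inflammatory signals and binds kinins that have lost their last arginine. Both couple to Gq and Gi proteins and so raise intracellular calcium. RGS proteins shorten such signals: they speed the hydrolysis of GTP by the G protein alpha subunit, and the genes of several of them are themselves induced by receptor signalling.

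BDKRB1 and BDKRB2 are neighbouring genes on chromosome 14. Their upstream sequences are shown because both receptor genes were highest in the same treatment. RefSeq (GRCh38.p14) gives 1 start for each. The 250 bases before the start of BDKRB1 are chr14:96255960-96256209 and those of BDKRB2 are chr14:96204589-96204838, both on the plus strand. Capitals mark the AHR core motif GCGTG and the CRE-like motif TGACATCA.
BDKRB1: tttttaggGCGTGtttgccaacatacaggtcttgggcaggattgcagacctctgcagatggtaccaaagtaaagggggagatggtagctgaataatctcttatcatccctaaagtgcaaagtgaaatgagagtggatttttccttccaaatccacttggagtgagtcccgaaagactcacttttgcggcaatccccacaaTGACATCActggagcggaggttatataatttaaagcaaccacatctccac
BDKRB2: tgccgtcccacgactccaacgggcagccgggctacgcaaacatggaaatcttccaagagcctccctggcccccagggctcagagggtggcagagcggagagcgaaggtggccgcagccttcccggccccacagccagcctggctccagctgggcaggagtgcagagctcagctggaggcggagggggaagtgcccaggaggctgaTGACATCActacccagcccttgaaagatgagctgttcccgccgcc

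The longest run of letters that both windows share is ATGACATCACT, of 11 bases, which begins 51 bases before the start of BDKRB1 and 46 bases before that of BDKRB2. It stands on either strand in 18 of 35116 such windows of the RefSeq table, or 0.0513%. The longest runs of other pairs of windows were not measured. This run was picked as the longest shared one, so nothing is read from its rarity. It contains the CRE-like motif TGACATCA, which was added to the search after both sequences had been read and which 2.37% of windows hold. The AHR core GCGTG, searched on both strands, stands 242 bases before the start of BDKRB1 and is not in the BDKRB2 window. It is common, being held by 32.2% of windows. Among the RGS genes RGS2 has it, 11 bases before its start, and the 5 windows of RGS3, the 4 of RGS4 and the 2 of RGS5 do not. Neither the CRE motif TGACGTCA nor the AP-1 motif TGACTCA is in any window of the 6 genes. A match in these letters is a description of sequence and not a site of binding.

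BDKRB1 was highest with SR1 alone and lowest with I3P alone. Its log2 expression in DMSO was 9.39, 9.09, 9.39 and 9.37 in replicates 1 to 4. In SR1 it was 10.002, 10.24, 10.01 and 10.35. In I3P it was 8.81, 9.19, 8.55 and 9.11, and in I3P+SR1 it was 9.61, 9.47, 9.13 and 9.18. All 4 SR1 arrays lay above the other 12, and the DMSO arrays overlapped those of I3P and of I3P+SR1. The means were 8.91 ± 0.29 (SD, n = 4) in I3P, 9.31 ± 0.15 (SD, n = 4) in DMSO, 9.35 ± 0.23 (SD, n = 4) in I3P+SR1 and 10.15 ± 0.18 (SD, n = 4) in SR1.

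**Figure D1:**
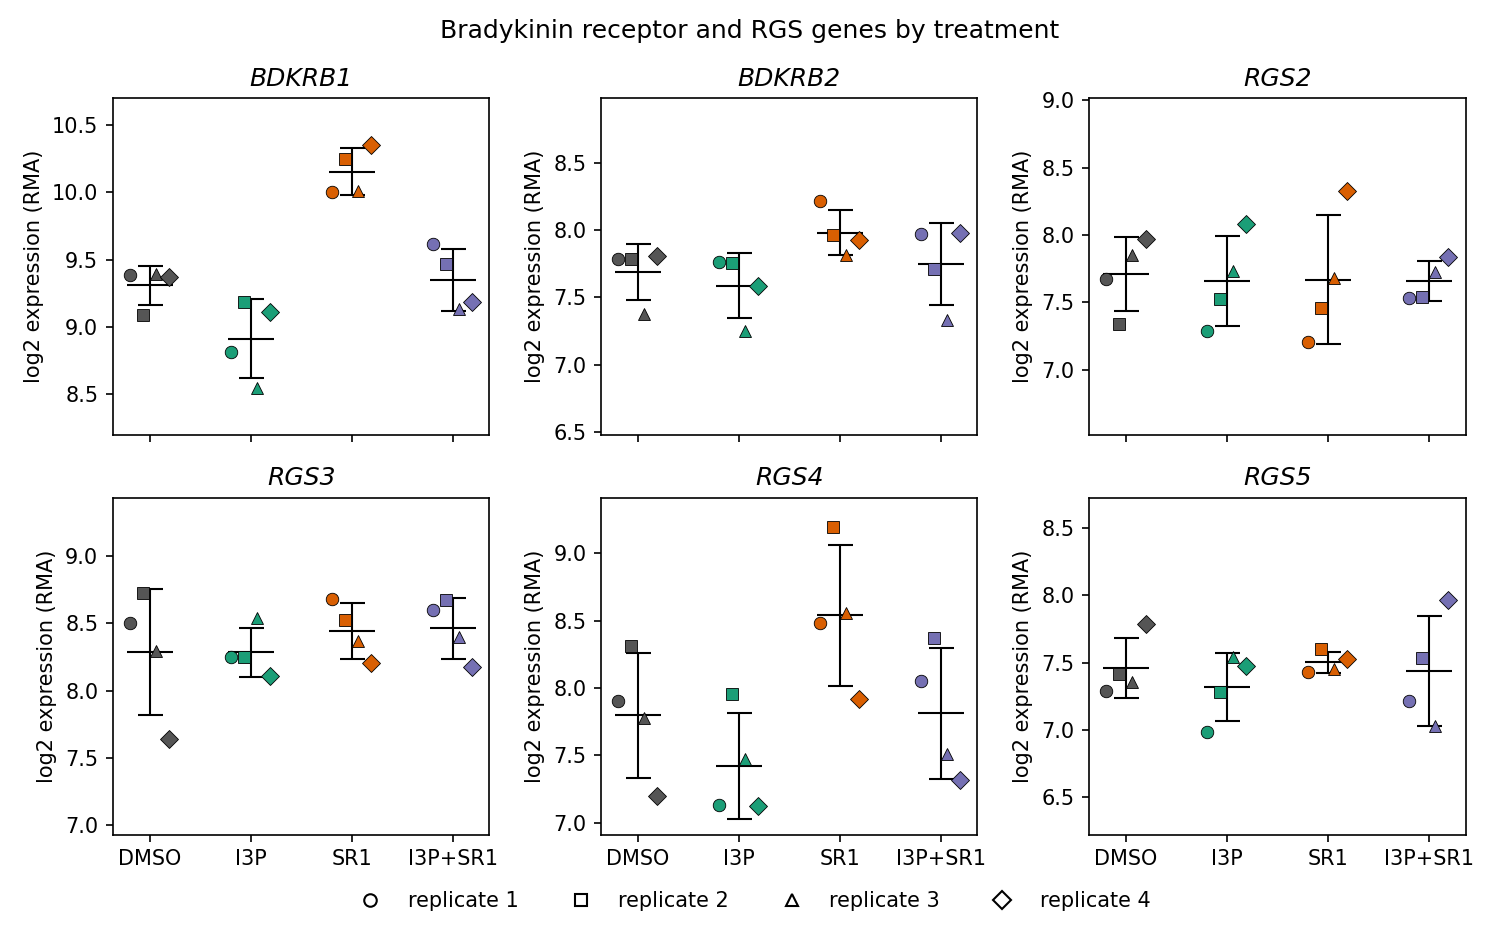
Log2 expression (RMA, vertical axis) of each gene on the 16 arrays by treatment (horizontal axis); each symbol is 1 array, its shape gives the replicate number, and bars are the group mean and 1 SD (n = 4). All panels span the same number of log2 units. The SR1 arrays of BDKRB1, from 10.002 to 10.35, lie above all its other arrays, and in RGS4 each replicate's SR1 array is its highest.

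Between SR1 and DMSO the log2 difference of BDKRB1 was 0.84 (SE 0.15), or 1.79-fold, with 0.62, 1.16, 0.62 and 0.98 in replicates 1 to 4. It was 0.89 within SLI and 0.80 within SMI. Over all genes, 23 of 14040 (0.164%) passed an adjusted p of 0.05 in this contrast in either direction. With the replicate number as a block 45 passed, 5 of them higher and 40 lower in SR1. Without DMSO replicate 1, DMSO replicate 2, SR1 replicate 1 or SR1 replicate 3, the count was 13, 9, 15 and 13. All genes in these last counts were lower in SR1. Of 10 markers of pericytes and smooth muscle, 9 were measured, and in the same contrast 8 of the 9 had positive differences (50.8% of all genes did), with a median of 0.20 and 0 passing. The mean log2 level of that list ranged from 7.98 to 8.38 in DMSO arrays and from 8.19 to 8.59 in SR1 arrays, and its part in the result was not tested. The list was positive in 6 of 9 in I3P+SR1 against I3P and in 2 of 9 in I3P against DMSO. Other cell type lists also had positive differences in SR1 against DMSO. These were 4 of 6 astrocyte and glioma genes, 3 of 3 neuronal, 2 of 3 endothelial, 2 of 3 haematopoietic and 3 of 6 fibroblast genes.

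BDKRB2 had the same order of means over a narrower range. In DMSO its arrays read 7.78, 7.78, 7.38 and 7.81, and in SR1 8.21, 7.96, 7.82 and 7.93. The I3P arrays read 7.76, 7.75, 7.25 and 7.58, and those of I3P+SR1 7.97, 7.71, 7.33 and 7.98. The lowest SR1 array, at 7.82, and the highest DMSO array, at 7.81, all but touched, and I3P+SR1 overlapped every other group. The SR1 minus DMSO difference was 0.29 (SE 0.16), or 1.22-fold, and it was positive in 4 of 4 replicates, from 0.12 to 0.44. BDKRB1 and BDKRB2 were thus 2 of the 6 genes whose SR1 arrays all lay above the DMSO arrays, where 1.23% of all genes did so, and nothing is read from this count since this contrast chose the genes.

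RGS4, whose protein acts on Gi and Gq alpha subunits, followed BDKRB1 once the replicates were set apart. Its DMSO arrays stood at 7.90, 8.31, 7.78 and 7.20 in replicates 1 to 4, and its SR1 arrays at 8.48, 9.20, 8.56 and 7.92. The I3P arrays stood at 7.13, 7.96, 7.47 and 7.12, and the I3P+SR1 arrays at 8.05, 8.37, 7.51 and 7.32. In every replicate SR1 was the highest of the 4 treatments and I3P the lowest. The replicates themselves differed as much as the treatments, with means over treatments of 7.89, 8.46, 7.83 and 7.39, so the groups overlapped.

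The SR1 minus DMSO difference of RGS4 was 0.74 (SE 0.30), or 1.67-fold, and kept within 0.58 to 0.89 over the 4 replicates. With the replicate number as a block its SE was 0.13 in place of 0.30. For BDKRB1 the block left the SE at 0.15, since its means by replicate, from 9.27 to 9.504, lay close together. RGS4 was 0.73 higher in SR1 than in DMSO within SLI and 0.75 within SMI. Leaving out 1 array moved the difference between 0.52 and 0.95, the lowest being without SR1 replicate 2.

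RGS2, RGS3 and RGS5 had group means close together. RGS2, the most Gq-selective of these regulators, ranged from 7.21 to 8.33 over all arrays, and its group means lay between 7.66 and 7.71. RGS3, which acts on Gi and Gq, ranged from 7.64 to 8.72, with group means from 8.28 to 8.46. RGS5, known as a marker of pericytes, ranged from 6.98 to 7.96, with group means from 7.32 to 7.50. The SR1 minus DMSO differences were -0.04 (SE 0.22) for RGS2, 0.15 (SE 0.20) for RGS3 and 0.04 (SE 0.18) for RGS5. In each of these genes the groups overlapped.

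RGS2 was higher in the SMI series, and BDKRB2 and RGS4 were lower in it, in every treatment. The mean of RGS2 was 7.45 in SLI and 7.90 in SMI, higher in SMI in 4 of 4 treatments. RGS4 was at 8.18 in SLI and 7.61 in SMI, higher in SMI in 0 of 4 treatments. The SMI minus SLI differences were -0.09 for BDKRB1, -0.23 for BDKRB2 (higher in SMI in 0 of 4 treatments), -0.31 for RGS3 and 0.17 for RGS5. By replicate number the means of BDKRB2 were 7.93, 7.80, 7.44 and 7.82, so replicate 3 made most of its difference. For RGS4 replicates 1 and 3 were alike, at 7.89 and 7.83, while replicates 2 and 4 were at 8.46 and 7.39. Each series holds only 2 replicate numbers, so these values carry no test, and what the series differ in is not given in the labels.

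Whether the antagonist also raises these genes when I3P is present is addressed by I3P+SR1 against I3P. Its mean difference uses neither the SR1 nor the DMSO arrays, while its SE, interval and p take their spread from all 16 arrays. BDKRB1 had a log2 change of 0.43 (SE 0.15, 95% interval 0.11 to 0.76), or 1.35-fold, positive in 4 of 4 replicates. Its unadjusted p was 0.0124 and its adjusted p = 0.999 by limma, so it did not pass over all genes. RGS4 had 0.39 (SE 0.30, interval -0.24 to 1.02, adjusted p = 0.999), positive in 4 of 4 replicates. The residual SD about the group means was 0.468 for RGS4, 0.235 for BDKRB2 and 0.219 for BDKRB1. With the replicate number as a block it was 0.187, 0.116 and 0.219, and none of these genes passed with the block. The intervals of RGS4 and BDKRB2 in this and the following comparisons, from the fit without a block, thus include differences between replicates. In this comparison 0 of 14040 genes passed (0%), and 466, or 3.32%, had an unadjusted p under 0.05. The arrays of the 2 groups overlapped for all 6 genes, where 1.35% of all genes did not overlap.

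The other changes in I3P+SR1 against I3P were smaller. BDKRB2 had 0.16 (interval -0.18 to 0.51), RGS3 0.18 (-0.24 to 0.59), RGS5 0.11 (-0.27 to 0.50) and RGS2 0.0003 (-0.46 to 0.46), with adjusted p of 0.999 to 1. All 6 estimates were above 0, where 52.6% of all genes were. Without the I3P array of replicate 1, BDKRB1 was at 0.40 and RGS4 at 0.29. Leaving out 1 array in turn gave 0.31 to 0.53 for BDKRB1. For RGS4 it gave 0.21 (without I3P+SR1 replicate 2) to 0.57 (without I3P replicate 2), and for BDKRB2 0.049 (without I3P replicate 3) to 0.30 (without I3P+SR1 replicate 3). Within SLI the change of BDKRB1 was 0.54 and within SMI 0.33, while that of RGS4 was 0.67 and 0.11. The within-array difference between BDKRB1 and BDKRB2 differed by 0.27 (exact permutation test, two-sided p = 0.143, 4 against 4 arrays, where the smallest possible p is 0.0286), so an unequal change of the receptor genes was not detected. Leaving out 1 array gave 0.18 (without I3P replicate 1) to 0.40 (without I3P+SR1 replicate 4), with exact p from 0.0571 to 0.286. With 1 array fewer the smallest possible exact p is 0.0571, so none of these could fall under 0.05.

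**Figure D2:**
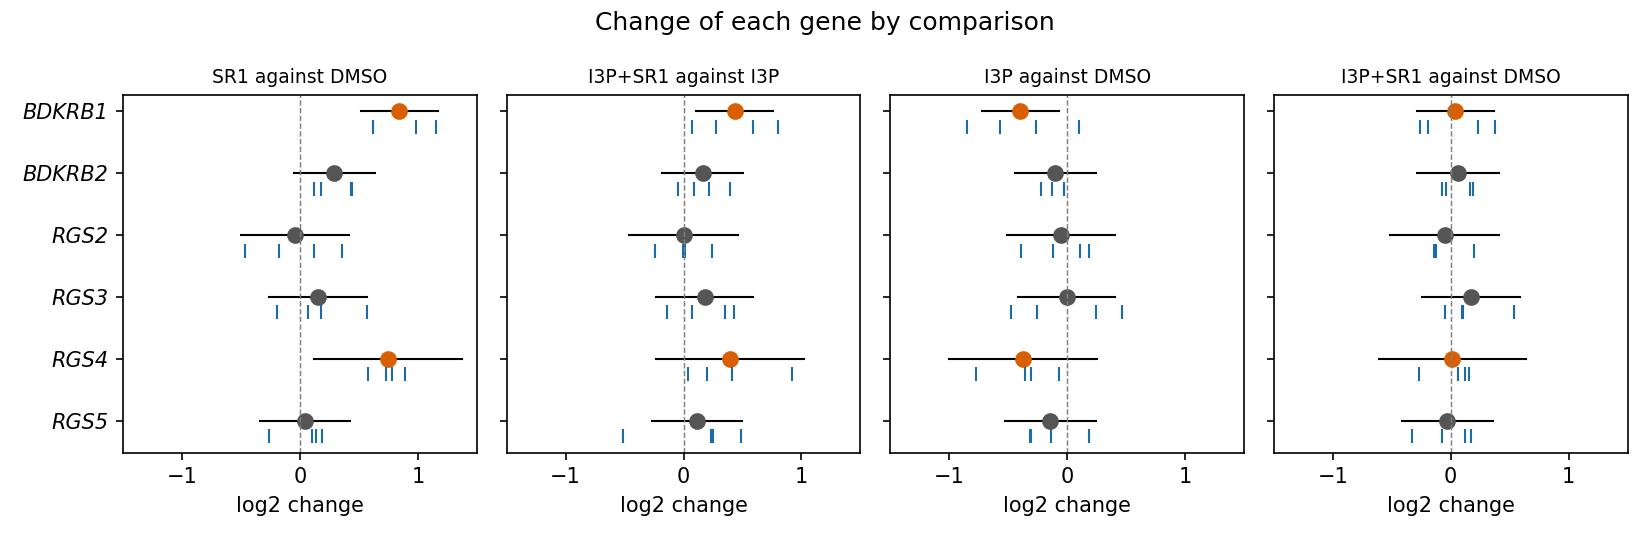
Log2 change (horizontal axis) of each gene in 4 comparisons; points are differences of group means (orange for BDKRB1 and RGS4), lines 95% intervals of the limma fit without adjustment, and blue ticks the differences of replicates 1 to 4. In SR1 against DMSO, which chose the genes, BDKRB1 is at 0.84 and RGS4 at 0.74; in I3P against DMSO both lie below 0, at -0.40 and -0.38.

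I3P alone against DMSO asks what the tryptophan metabolite does in control cells. It shares the DMSO arrays that were used to choose the genes, as does I3P+SR1 against DMSO, so their p-values are not independent of that choice. BDKRB1 had a log2 change of -0.40 (SE 0.15, interval -0.72 to -0.07, unadjusted p = 0.0209, adjusted p = 0.999), with lower values in 3 of 4 replicates and 0.10 higher in replicate 2. RGS4 had -0.38 (SE 0.30, interval -1.003 to 0.25, adjusted p = 0.999), lower in 4 of 4 replicates. BDKRB2 had -0.10 (-0.45 to 0.24), RGS5 -0.14 (-0.52 to 0.24), RGS2 -0.05 (-0.51 to 0.41) and RGS3 -0.0047 (-0.42 to 0.41). By limma 0 of 14040 genes passed (0%), and 395, or 2.81%, had an unadjusted p under 0.05. This comparison shares the I3P arrays with the previous one, so a low I3P group gives opposite signs in both.

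Without the I3P array of replicate 1 the change of BDKRB1 was -0.36 and that of RGS4 -0.28. BDKRB1 was at -0.24 within SLI and -0.55 within SMI, and RGS4 at -0.56 and -0.19. The within-array difference between the receptor genes differed by -0.29 (exact permutation test, two-sided p = 0.143, 4 against 4 arrays). Leaving out 1 array gave -0.40 (without DMSO replicate 2) to -0.16 (without DMSO replicate 3), with exact p from 0.0571 to 0.286. Here too 0.0571 is the smallest possible exact p with 1 array fewer. For the log2 change of RGS4, leaving out 1 array gave -0.58 (without DMSO replicate 4) to -0.20 (without DMSO replicate 2).

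With both compounds present no change from the control was detected. In I3P+SR1 against DMSO the log2 change was 0.04 (interval -0.29 to 0.37) for BDKRB1, 0.06 (-0.28 to 0.41) for BDKRB2 and 0.02 (-0.61 to 0.64) for RGS4. It was -0.05 (-0.51 to 0.41) for RGS2, 0.17 (-0.24 to 0.59) for RGS3 and -0.03 (-0.41 to 0.36) for RGS5. No member passed (adjusted p = 1 for all 6, by limma), where 0 of 14040 genes (0%) passed and 194, or 1.38%, had an unadjusted p under 0.05. For RGS4 the interval, which includes differences between replicates, still allows a change of 0.64. BDKRB1 was at 0.30 within SLI and -0.22 within SMI.

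Against SR1 alone, the arrays with both compounds were lower for the genes that SR1 set apart. These values share the SR1 arrays used to choose the genes and are a description. The I3P+SR1 minus SR1 difference of BDKRB1 was -0.80 (SE 0.15), from -1.17 to -0.39 over the replicates. The groups did not overlap, which held in this direction for 1.38% of all genes. For RGS4 it was -0.73 (SE 0.30), negative in 4 of 4 replicates, for BDKRB2 -0.23 (SE 0.16), negative in 3 of 4, and for RGS2, RGS3 and RGS5 -0.0096, 0.02 and -0.07. In this contrast 16 genes (0.114%) passed and 45 did with the replicate block, while the count was 10 when SR1 replicate 2 was left out and 10 when I3P+SR1 replicate 3 was. The interaction, the I3P difference in the presence of SR1 minus that in its absence, was -0.41 (interval -0.87 to 0.05) for BDKRB1 and -0.35 (-1.24 to 0.53) for RGS4. That of RGS4 was -0.066 within SLI and -0.64 within SMI, and leaving out 1 array gave -0.56 (without SR1 replicate 4) to -0.13 (without SR1 replicate 2).

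The correlations between the genes include the SR1 and DMSO arrays that were used to choose them, and so restate that choice in part. After the mean of its replicate number was subtracted from each array, BDKRB1 and RGS4 correlated at r = 0.93 (Spearman 0.87) over the 16 arrays, and at r = 0.90 without the 2 arrays farthest from the median of BDKRB1. The SR1 arrays form a cluster of their own, and over the other 12 arrays r was 0.75. Between BDKRB1 and BDKRB2 r was 0.76, and 0.44 without the SR1 arrays. The pairs of BDKRB1 with RGS2, RGS3 and RGS5 were at 0.25, 0.20 and 0.20. Without subtraction of the replicate means, BDKRB1 and RGS4 were at 0.69.

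TIPARP, an AHR target that acts in feedback on the receptor, ran opposite to BDKRB1. Their r was -0.96 over 16 arrays after subtraction and -0.88 over the 12 arrays without SR1. CYP1B1 was at -0.92 with BDKRB1 (-0.83 without SR1), at -0.91 with RGS4 (-0.78 without SR1) and at -0.81 with BDKRB2 (-0.46 without SR1). In SR1 against DMSO, TIPARP had -1.34 and CYP1B1 -2.57. That contrast chose the receptor and RGS genes, so negative r over the 16 arrays restate the choice in part. How many other genes ran opposite to BDKRB1 was not counted. In I3P against DMSO TIPARP had a log2 change of 0.56 (interval 0.08 to 1.03, adjusted p = 0.999), opposite in sign to the -0.40 of BDKRB1. The arrays of a correlation share RNA preparation, hybridization and normalization, and the values are given without p.

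**Figure D3:**
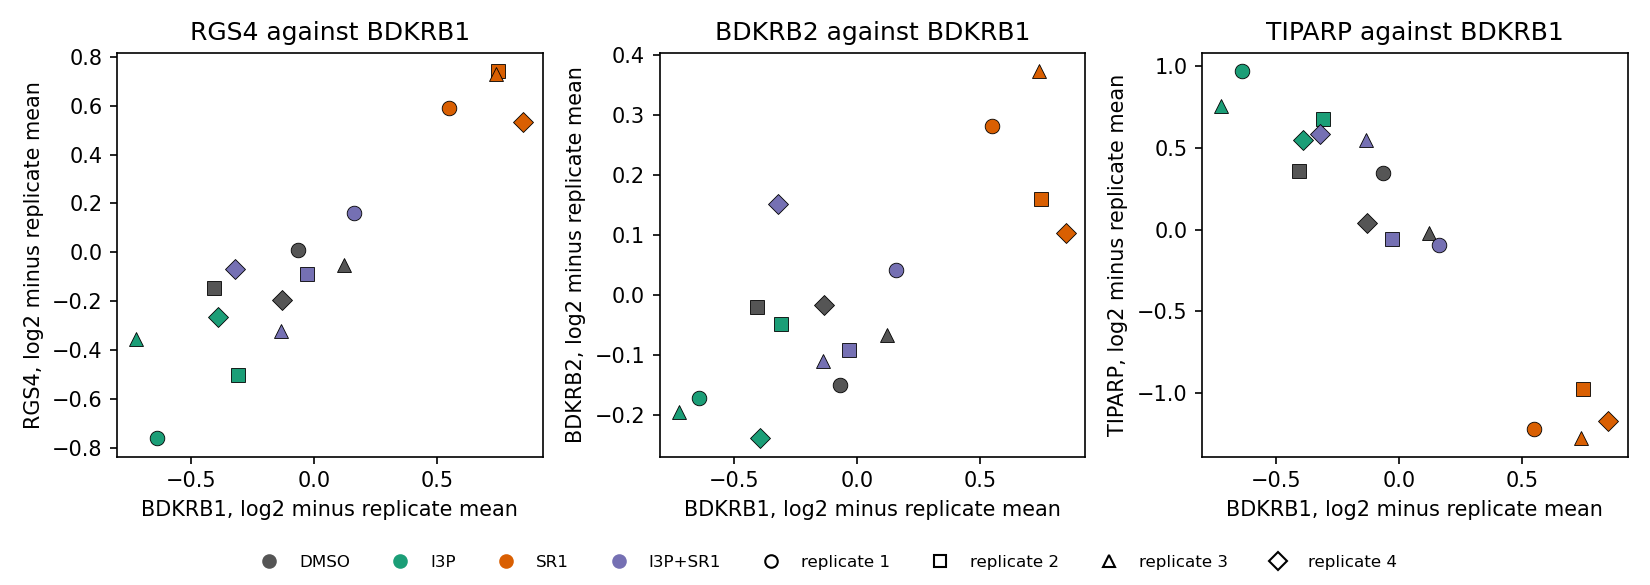
RGS4, BDKRB2 and the AHR target TIPARP (vertical axes) against BDKRB1 (horizontal axes) on 16 arrays, each as log2 expression minus the mean of the 4 arrays of its replicate number; colour gives the treatment and shape the replicate. RGS4 lies along a rising line with BDKRB1 (r = 0.93) and TIPARP along a falling one (r = -0.96), with the SR1 arrays apart from the rest in both. The SR1 and DMSO arrays were used to choose BDKRB1 and RGS4, so these r restate that choice in part.

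The genes whose pattern was most like that of BDKRB1, by this r over 16 arrays, were RHOBTB3 (0.943), CD274 (0.943) and SGK223 (0.941). CD274 encodes the immune checkpoint ligand PD-L1. For RGS4 they were RHOBTB3 (0.953), SLC29A1 (0.952), which encodes a nucleoside transporter, and IL7R (0.948), the interleukin 7 receptor. RHOBTB3 thus led both lists, with group means of 9.16 in I3P, 9.35 in DMSO, 9.37 in I3P+SR1 and 9.71 in SR1. IL7R was at 7.73, 8.08, 8.20 and 8.95 in the same order. In all, 203 genes had r over 0.8 with BDKRB1 and 257 with RGS4. Both the names and the counts rest on the subtraction of replicate means: without it 16 genes were over 0.8 with BDKRB1, led by FJX1 (0.881), MRTO4 (0.88) and POLR3G (0.861), and 126 with RGS4, led by MET (0.915), DDR2 (0.915) and PCBD1 (0.91).

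For BDKRB2 the most alike were FBN1 (0.905), the gene of the matrix protein fibrillin, VEPH1 (0.901) and PLXNA2 (0.900), and 40 genes were over 0.8. For RGS2 they were ITGAE (0.85), IST1 (0.83) and METTL16 (0.82), for RGS3 FKBP5 (0.879), TGFB1I1 (0.864) and RECQL4 (0.848), and for RGS5 CHFR (0.894), ACTR5 (0.874) and C14orf93 (0.859). RGS2, RGS3 and RGS5 had 5, 11 and 7 genes over 0.8. Without the subtraction the counts were 6 for BDKRB2, 199 for RGS2, 137 for RGS3 and 7 for RGS5, and other genes led: DGAT2 (0.862), MRPL21 (0.928), FADS2 (0.892) and HAS2-AS1 (0.821).

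No gene of the lists around the kinin pathway passed a test. The receptor and RGS genes passed none of the comparisons in which they were tested. They were not tested in SR1 against DMSO, in I3P+SR1 against SR1 or for the interaction. In 8 lists, 95 genes were measured and 0 passed by limma in any comparison. Of all 14040 genes, 0 passed in I3P+SR1 against I3P, I3P against DMSO and I3P+SR1 against DMSO. The share was 0.164% in SR1 against DMSO and 0.114% in I3P+SR1 against SR1, so nothing is read from this count. In I3P+SR1 against I3P, 2 of the 95 had an unadjusted p under 0.05 (2.11%, GNA15 and NOS2, where 3.32% of all genes did). In SR1 against DMSO 4 did (4.21%, CCL2, CPM, IL1B and NOS2, where 2.93% of all genes did). The median change of the 95 genes in SR1 against DMSO was -0.02, against 0.0025 for all genes. These genes with an unadjusted p were named after their values were seen. CPM, a carboxypeptidase that turns B2 ligands into B1 ligands, had -0.58 (SE 0.24, interval -1.09 to -0.07) in SR1 against DMSO. In its list of kinin breakdown and processing, CPN1, CPN2 and CPD had 0.20, 0.15 and 0.03, and CPE -0.0056. Of the 16 measured genes of that list, 7 had positive differences. A change in kinin conversion was not tested.

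Kinin formation was covered by 5 genes, with a median change of -0.07 in I3P+SR1 against I3P and 0 passing. SERPING1, the C1 inhibitor that restrains kallikrein, had -0.33, KNG1, the kininogen gene, 0.20 and F12, coagulation factor XII, 0.15. The 16 genes of kinin breakdown and processing had a median of -0.02, with ANPEP (aminopeptidase N) at -0.30, CPD at -0.18 and CPN1 at 0.17. In SR1 against DMSO KNG1 had 0.29 and ANPEP -0.14.

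Of other RGS genes and their partner GNB5, 10 were measured, 5 above 0 in I3P+SR1 against I3P and 4 in SR1 against DMSO, with medians of -0.0023 and -0.06. RGS6 had 0.32, GNB5 0.19 and RGS17 -0.12 in I3P+SR1 against I3P. Among 12 G protein alpha genes, GNA15 had -0.45 (interval -0.79 to -0.11, adjusted p = 0.999), GNAI3 -0.22 and GNAO1 -0.22. The 18 genes of phospholipase C, IP3 receptors and calcium signalling ranged around a median of -0.0057, with NFATC2 at -0.24, NFATC1 at 0.23 and NFATC4 at -0.17. The 6 genes of receptor desensitisation had ARRB1 at -0.27, ADRBK1 at 0.26 and ARRB2 at 0.19.

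Other receptors numbered 15, with a median of 0.02 in SR1 against DMSO and -0.02 in I3P+SR1 against I3P. GPRC5A had 0.34, P2RY2 (a nucleotide receptor) -0.24 and LPAR1 (a lysophosphatidic acid receptor) -0.24 in the latter. In the list of inducers of the B1 receptor and kinin effectors, 13 genes were measured and 5 were above 0 in SR1 against DMSO, with a median of -0.13. IL1B, the interleukin known to induce BDKRB1, had -1.70 (SE 0.64, adjusted p = 1) in SR1 against DMSO and -0.51 (SE 0.64) in I3P+SR1 against I3P. IL1A had -0.67 and -0.40, and NOS2, the inducible nitric oxide synthase, 0.32 and 0.42. In I3P+SR1 against I3P the interval of IL1B, from -1.87 to 0.85, holds both signs, and a link of IL1B with BDKRB1 was not tested.

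**Figure D4:**
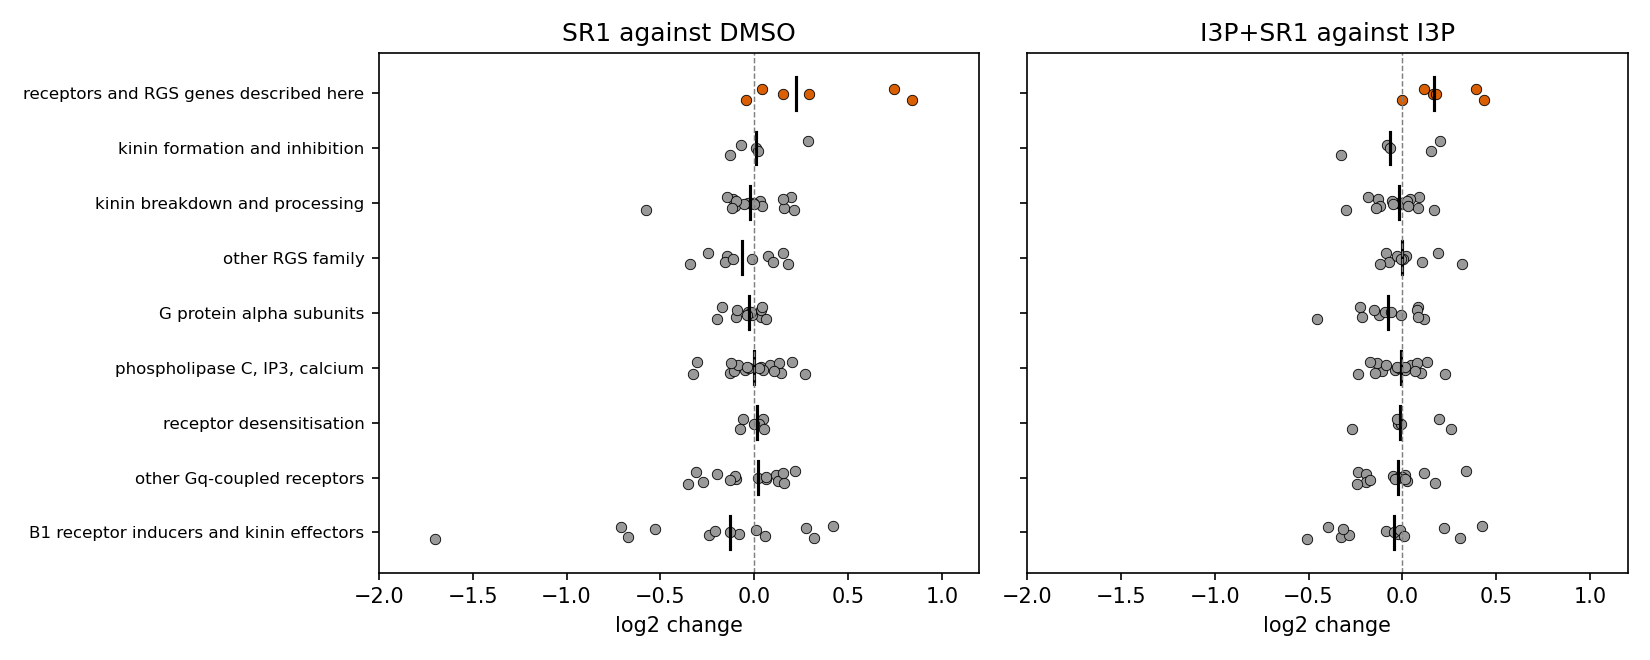
Log2 change (horizontal axis) of the 6 genes described here (orange) and of 95 genes in 8 lists around the kinin pathway (grey) in SR1 against DMSO and in I3P+SR1 against I3P; each point is a gene and the vertical bars are medians. BDKRB1 and RGS4 lie to the right of the other lists' points in SR1 against DMSO, which chose the genes, so nothing is read from their place. IL1B is the point at -1.70.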

How the data were processed

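RNA of U-87MG cells was turned into labelled cDNA with the Affymetrix WT PLUS kit, per the labels' protocols. The deposited values are log2 expression per transcript cluster, made by the authors with oligo and RMA, per the submitters' processing notes, with background correction, quantile normalization and probe summary. A shift common to most genes is removed by the quantile step, and fold changes of dim probe sets are understated by RMA. The sources used here give no tool versions, genome build or treatment time. The values ran from 2.13 to 13.8, and array medians lay between 8.26 and 8.30. The number of arrays limits the precision.

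Of 16510 rows, 14096 had 1 symbol in the platform annotation, 795 had several and 1619 were unnamed. The row with the highest mean was kept for each of 14040 genes. limma 3.58.1 in R 4.3.3 estimated 1 mean for each group from all 16 arrays, with no block. Tests were two-sided, with Benjamini-Hochberg over the 14040 genes and a threshold of 0.05. Standard errors (SE) are limma's moderated ones, and 95% intervals are not adjusted for the number of genes. The fit was tested on simulated data. Members, lists, tests and alternatives were chosen with earlier results of these data known. Named were all members, genes of other lists that passed or else up to 3 per list with the largest absolute change in I3P+SR1 against I3P, the 3 genes most like each member, and AHR targets as a check. Same-numbered arrays deviated together over genes, with correlations of 0.30 to 0.52 for SR1 with DMSO, 0.38 to 0.65 for I3P+SR1 with SR1 and 0.22 to 0.52 for I3P+SR1 with DMSO. Promoters came from RefSeq, GRCh38.p14, matched by symbol, and 6 of 6 genes matched.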

Additional observations from a re-analysis of the deposited data

Results flagged for a closer look

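Of 24 sets of 4 arrays (6 genes in 4 treatments), 2 held an array far from the others of its treatment, and chance gives about 1 in 20. In DMSO, BDKRB1 was at 9.09 in replicate 2, where the nearest array was at 9.37. BDKRB2 was at 7.38 in DMSO replicate 3, where the nearest was at 7.78. Replicate 3 was the lowest array of BDKRB2 in the other treatments as well. Without DMSO replicate 2 the SR1 minus DMSO difference of BDKRB1 was 0.77 in place of 0.84, and without DMSO replicate 3 that of BDKRB2 was 0.19 in place of 0.29.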

How the results depend on the processing

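Direction and side of the threshold were recomputed under each alternative, and no member gained or lost a call in a tested comparison (limma adjusted p from 0.649 to 1). In SR1 against DMSO 23 genes passed, 45 with a replicate block, 6 with only the groups compared, 4 within SLI and 1 within SMI. In I3P+SR1 against SR1 16 passed, 45 with a replicate block, 27 with a title series block, 7 with only the groups compared, and 1 within SLI and 1 within SMI. Leaving out 1 array gave 9 to 25 and 10 to 18. Leaving out all 4 arrays of replicate number 1, an alternative chosen after seeing the data, gave 4 and 6. Within SLI 1 gene passed in I3P+SR1 against I3P, in place of 0, and 0 passed for the interaction, in place of 1. The replicate block was also tried where the numbers did not pair all of the arrays. There, deviations correlated at -0.0879 to 0.553 for I3P+SR1 with I3P and at -0.0655 to 0.506 for I3P with DMSO. In each, 3 of 4 arrays correlated best with their own number, and 0 genes passed with the block. The block changed no other call.

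Small estimates changed sign. Within SLI, I3P+SR1 against DMSO was at 0.028 for RGS2 and 0.023 for RGS5. Within SMI, I3P+SR1 against I3P was at -0.13 for RGS2, -0.036 for RGS3 and -0.014 for RGS5, I3P against DMSO at 0.36 for RGS3, and I3P+SR1 against DMSO at -0.22 for BDKRB1 and -0.074 for RGS4. Without replicate number 1, RGS2 was at -0.081 in I3P+SR1 against I3P and 0.062 in I3P against DMSO, RGS3 at 0.079 in the latter, and BDKRB1 and RGS4 at -0.024 and -0.030 in I3P+SR1 against DMSO. Leaving out 1 array gave, in I3P+SR1 against I3P, -0.12 to 0.14 for RGS2 and -0.061 to 0.25 for RGS5. In I3P against DMSO it gave -0.20 to 0.013 for BDKRB2, -0.19 to 0.073 for RGS2 and -0.22 to 0.14 for RGS3. In I3P+SR1 against DMSO it gave -0.049 to 0.11 for BDKRB1, -0.042 to 0.20 for BDKRB2, -0.17 to 0.036 for RGS2, -0.044 to 0.32 for RGS3, -0.18 to 0.19 for RGS4 and -0.20 to 0.11 for RGS5. The cause was not tested. Without the lowest 25% of genes RGS5 had no value. With 4 arrays a group and no detection calls, changes smaller than the printed intervals allow were not detectable.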
